A study of Mus musculus with 16 samples.

Results

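MUNC, a spliced long non-coding RNA transcribed upstream of Myod1, was compared with an empty vector (EV) in differentiating C2C12 cells, a mouse myoblast line, labelled wild type. The comparison took every library that its labels place in differentiation medium (DM) with a wild-type genotype: 2 EV libraries and 2 MUNC libraries, 4 of the 16 in the series. The labels give the C57BL/6 background, skeletal muscle of postnatal day 21 as the tissue source, and stable transfection with either vector; nothing says whether a line is a clone or a pool. The other 12 libraries are the same lines in growth medium (GM), and a Myod1 knockout made by CRISPR-Cas9 and single-cell screening that carries either vector in GM or DM. Poly(A)-enriched RNA was read in pairs of 75 bases. All 4 libraries share the cell line, the medium and a stably transfected vector. MUNC and any other difference between the EV line and the MUNC line cannot be told apart. The labels do not say that replicates were separate cultures. The p-values here therefore cover only the spread between replicate libraries, estimated over all 16 in the series, and this spread may be technical.

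Myod1 encodes MyoD, the basic helix-loop-helix factor that starts the muscle programme by binding E-boxes, and MUNC lies over a distal enhancer of that gene. When serum is withdrawn, C2C12 myoblasts leave the cell cycle, switch on Myog, assemble sarcomeres and fuse into myotubes. The interferon response is a separate, antiviral programme. Type I interferons bind Ifnar1 and Ifnar2 and act through Jak1, Stat2 and Irf9 on interferon-stimulated response elements, which switch on antiviral genes and the machinery that presents antigens.

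The labels were first checked with their own target genes, in CPM, the usual depth-normalised read count, after scaling by the trimmed mean of M values (TMM). MUNC, annotated as Gm45923 (chromosome 7, 46371403 to 46372492, mouse build GRCm38), stood at 8.95 and 1.15 CPM in the EV libraries and at 2012 and 2670 CPM in the MUNC libraries. It was 8.85 ± 1.53 higher on the log2 scale (fitted value ± SE, as in all that follows; edgeR quasi-likelihood F test, adjusted p = 0.0012), and this value pools vector-derived and chromosomal MUNC reads. Myod1 (chromosome 7, 46376474 to 46379092) stood at 0.143 and 0.0136 CPM with EV, from 13 and 1 reads, and at 3.18 and 1.70 CPM with MUNC (log2 difference 4.83 ± 0.76, adjusted p = 0.00067). In the differentiating libraries labelled knockout it stood at 24.4 and 33.1 CPM with EV and at 16.01 and 14.999 CPM with MUNC. The libraries labelled wild type thus held less Myod1 RNA than those labelled knockout. RNA from a deleted gene can persist, and no label places the deleted stretch, so the high value alone checks nothing; the near absence from the EV libraries labelled wild type goes against their label, and the groups are called WT-labelled and knockout-labelled throughout.

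The 4 libraries held estimated counts of 83882600 and 74050300 with EV and of 48237300 and 107733000 with MUNC, in a range of 35832000 to 107733000 over the series. Across genes, log2 levels correlated at 0.988 between the EV libraries and at 0.992 between the MUNC libraries, and at 0.925 and 0.919 between vectors within a replicate number. The first principal component of the 4 libraries took 88.4% of the variance and separated the vectors; the second took 8.2% and separated the replicate numbers. Zrsr1, an imprinted gene for a splicing factor relative, stood at 72.9 and 326 CPM in the first replicates and at 54743 and 57102 CPM in the second replicates, with no such split by vector. Exact permutation of 2 libraries against 2 cannot reach the usual threshold, so every test below is from the fit across all genes and 16 libraries, which shares one estimate of the spread.

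Of 14972 genes tested, 4980 differed between MUNC and EV at an adjusted p under 0.05, which is 33.3% of them. Of these, 2337 (15.6%) were higher with MUNC and 2643 (17.7%) lower, and the median over all genes was -0.00 on the log2 scale. Only 1288 genes (8.6%) passed a test against a minimum log2 difference of 1. The total fell to 3250 without EV replicate 2, to 3163 without MUNC replicate 1 and to 3140 without MUNC replicate 2. Because so many genes passed, each list below is described by how many members moved in each direction. Each such count is to be read beside the 15.6% higher and 17.7% lower, also where these shares are not repeated. No list was tested as a set. The lists were chosen with earlier results of these data known, so their counts and the shares beside them only describe. As bulk libraries, they cannot separate fewer cells of a type from less RNA per cell.

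**Figure D1:**
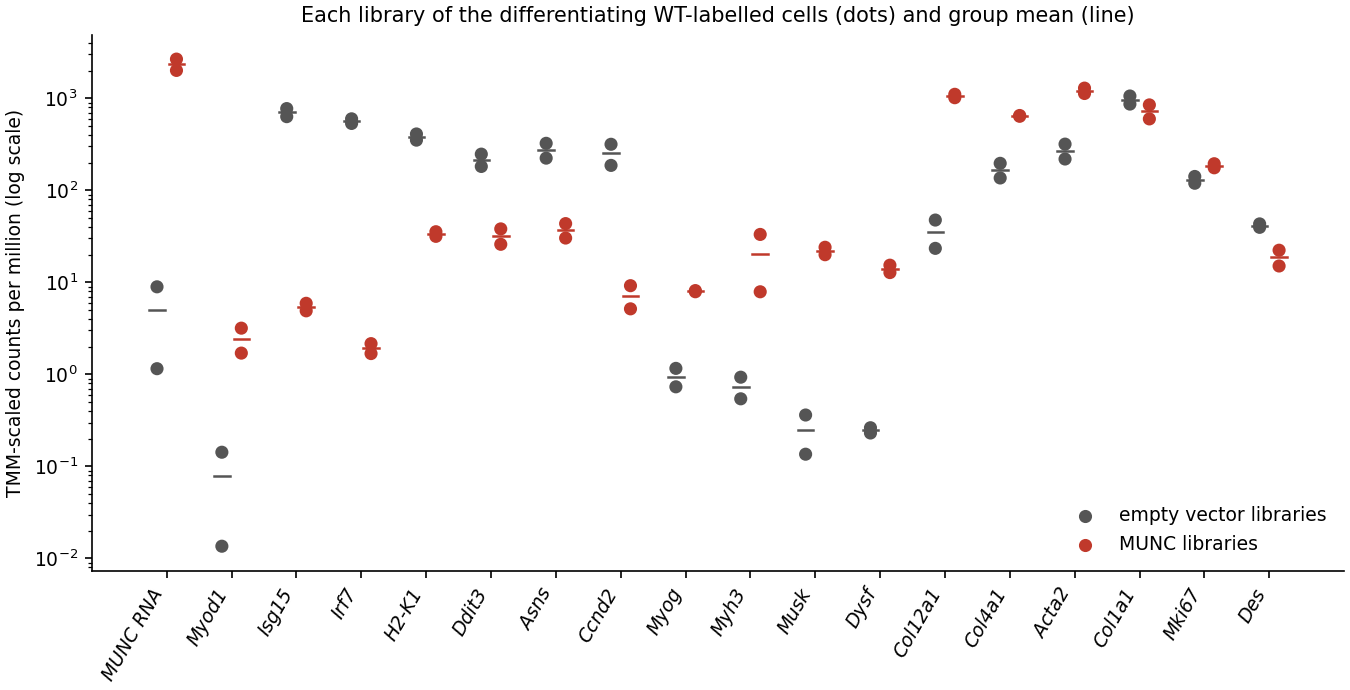
Level of 18 genes in each of the 4 libraries, in CPM (TMM-scaled) on a log axis. Grey dots are the EV libraries, red dots the MUNC libraries, and lines the group means. Interferon, stress and Ccnd2 levels were lower with MUNC (Isg15 at 633 and 774 CPM against 4.91 and 5.92 CPM), muscle and matrix levels such as Musk and Col12a1 higher, and Col1a1, Mki67 and Des did not pass the test.

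Among the gene lists, which were chosen with earlier results known, the interferon response stood lowest. All 41 of its members were tested and all 41 were lower with MUNC, beside 17.7% of all genes, with a median log2 difference of -7.09. Together the 41 genes made up 17502 and 17884 CPM in the EV libraries and 463 and 439 CPM in the MUNC libraries. For all 41, both MUNC libraries lay below both EV libraries, beside 35.2% of all genes. Between 39 and 41 members were past the test when any 1 of the 4 libraries was left out.

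The promoters of 4 genes are shown because these genes stand at successive steps of the pathway: the effector Isg15, the RNA sensors Ifih1 (MDA5) and Ddx58 (RIG-I), and the transcription factor Stat2. They are RefSeq windows on GRCm38.p6, from 250 bases before the annotated start to 50 after it, written 5′ to 3′ on the gene's strand. Capitals mark matches to the interferon-stimulated response element, searched on both strands as GAAA, any 2 bases and GAAA again; matches can overlap.
Isg15, chr4:156200769-156201068, minus strand: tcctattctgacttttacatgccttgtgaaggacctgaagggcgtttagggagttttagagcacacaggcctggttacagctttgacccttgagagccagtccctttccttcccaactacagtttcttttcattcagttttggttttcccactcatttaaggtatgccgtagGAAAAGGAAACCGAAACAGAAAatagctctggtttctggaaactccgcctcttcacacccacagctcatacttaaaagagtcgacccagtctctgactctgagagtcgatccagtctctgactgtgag
Ifih1, chr2:62646206-62646505, minus strand: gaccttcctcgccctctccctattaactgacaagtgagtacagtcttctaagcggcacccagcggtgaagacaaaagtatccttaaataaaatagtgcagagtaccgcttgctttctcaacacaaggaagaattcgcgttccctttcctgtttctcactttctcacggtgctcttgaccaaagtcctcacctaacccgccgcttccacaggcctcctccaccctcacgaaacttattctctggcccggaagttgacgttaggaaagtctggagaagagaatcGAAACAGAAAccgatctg
Ddx58, chr4:40239776-40240075, minus strand: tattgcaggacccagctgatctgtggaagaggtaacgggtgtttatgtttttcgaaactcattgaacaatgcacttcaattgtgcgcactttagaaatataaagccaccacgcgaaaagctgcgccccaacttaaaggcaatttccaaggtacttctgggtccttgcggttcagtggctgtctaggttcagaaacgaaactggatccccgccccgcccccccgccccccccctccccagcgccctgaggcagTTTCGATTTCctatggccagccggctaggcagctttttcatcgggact
Stat2, chr10:128270248-128270547, plus strand: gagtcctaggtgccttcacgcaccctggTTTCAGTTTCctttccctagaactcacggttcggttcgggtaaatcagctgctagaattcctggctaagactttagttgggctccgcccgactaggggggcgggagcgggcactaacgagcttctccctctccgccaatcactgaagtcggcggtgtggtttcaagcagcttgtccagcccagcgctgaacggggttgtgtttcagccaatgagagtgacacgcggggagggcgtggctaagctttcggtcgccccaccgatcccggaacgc

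The Isg15 window holds 3 overlapping matches that begin 78, 72 and 66 bases before the start. The Stat2 match begins 222 bases before the start, and the Ifih1 and Ddx58 matches lie 32 and 2 bases after it. Of the 41 interferon genes, 31 had a window under their symbol and 17 of these (54.8%) held at least 1 match, beside 3.44% of all 32851 windows and 3.99% of all 27025 genes with a window. None of the 34 thick and thin filament genes with a window held one. A match describes these letters only.

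The ligands themselves were near the floor of detection. Ifnb1, the interferon-beta gene, had 24 and 33 counts in the EV libraries and 0 and 2 in the MUNC libraries, and Ifna4 had 16 and 15 against 0 and 0; these genes were named after their counts were seen and carry no test here. The cytosolic sensors that lead to interferon synthesis were lower. Ifih1 stood at 216.5 and 198.8 CPM with EV and at 1.12 and 0.593 CPM with MUNC, a log2 difference of -7.98 ± 0.84 (edgeR, adjusted p = 4.2e-05). Ddx58 stood at 549 and 583 CPM against 38.2 and 34.3 CPM (-3.96 ± 0.55), and Dhx58 (LGP2), their regulatory relative, at 147 and 153 CPM against 1.18 and 1.03 CPM (-7.09 ± 0.21, adjusted p = 1.7e-08). The groups do not overlap for any of the 3 sensors.

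Receptor and adaptor genes were a different case. Ifnar1, a receptor chain, was higher with MUNC, at 72.8 and 68.7 CPM against 110 and 107 CPM (0.62 ± 0.10, edgeR adjusted p = 0.0011). Ifnar2, the other receptor chain, stood at 31.5 and 29.9 CPM against 27.9 and 27.9 CPM and did not pass the test (-0.14 ± 0.11). Nor did the kinase gene Jak1 (0.06 ± 0.10), the sensor adaptor Mavs (-0.08 ± 0.17) or the interferon-inducing factor Irf3 (-0.30 ± 0.14), whose fitted differences were all under 0.5 in size. Those 5 genes, with Ifih1, Ddx58, Stat2, B2m and Calr, were chosen for naming after their values were seen.

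The transcription factors were lower by unequal amounts. Irf7, the factor that amplifies interferon synthesis, stood at 534 and 599 CPM with EV and at 2.16 and 1.68 CPM with MUNC (-8.21 ± 0.48, edgeR adjusted p = 9.5e-07). Stat2 and Irf9, which bind the response element together, differed by -3.47 ± 0.33 and -3.88 ± 0.19. With MUNC, Stat2 still stood at 35.55 and 34.2 CPM and Irf9 at 9.68 and 6.93 CPM.

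Antiviral effector genes were nearly silent with MUNC. Isg15, a ubiquitin-like modifier, stood at 633 and 774 CPM with EV and at 4.91 and 5.92 CPM with MUNC (-7.02 ± 0.48, edgeR adjusted p = 2.1e-06), and Usp18, the protease that removes it, at 395 and 448 CPM against 0.275 and 0.0383 CPM (-11.70 ± 0.61). The oligoadenylate synthases, which activate RNase L, followed: Oas1a stood at 334 and 361 CPM against 0.118 and 0.0383 CPM (-12.32 ± 0.61) and Oas3 at 296 and 339 CPM against 0.530 and 0.268 CPM (-9.72 ± 0.62). Oas1g had 145 and 149 CPM with EV and no count with MUNC, which makes it at least 7604-fold lower against a floor of 3 counts over both MUNC libraries. Oas1a and Oas1g are close relatives, as are Ifit3 and Ifit3b and the H2 genes, so the split of reads between such copies is uncertain. Mx1 and Mx2, antiviral GTPases, differed by -8.17 ± 0.45 and -9.56 ± 0.62, Rsad2 (viperin) by -10.35 ± 0.91 and Ifi44 by -10.51 ± 0.82. For each of them the MUNC libraries stood under 1 CPM.

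Antigen presentation moved the same way with smaller differences. Of 17 members tested, 16 were lower, none was higher, and the median was -3.43; Pdia3, a chaperone of peptide loading, was the member that did not pass. Tap1, which carries peptides into the endoplasmic reticulum, stood at 69.4 and 95.2 CPM with EV and at 0.609 and 0.440 CPM with MUNC (-7.32 ± 0.43, edgeR adjusted p = 9.5e-07). Psmb9, an immunoproteasome subunit, stood at 16.4 and 15.3 CPM against 0.0393 and 0.0191 CPM (-9.13 ± 0.48). The class I heavy chain genes H2-K1 and H2-D1 differed by -3.50 ± 0.16 and -3.43 ± 0.18, and their light chain B2m, at 2363 and 1819 CPM against 303 and 244 CPM, by -2.94 ± 0.24. Calr, a chaperone outside the immune-specific part of the list, differed by -0.57 ± 0.18 (edgeR adjusted p = 0.031) and did not pass without EV replicate 1, EV replicate 2 or MUNC replicate 2 (adjusted p = 0.084, 0.084 and 0.19).

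**Figure D2:**
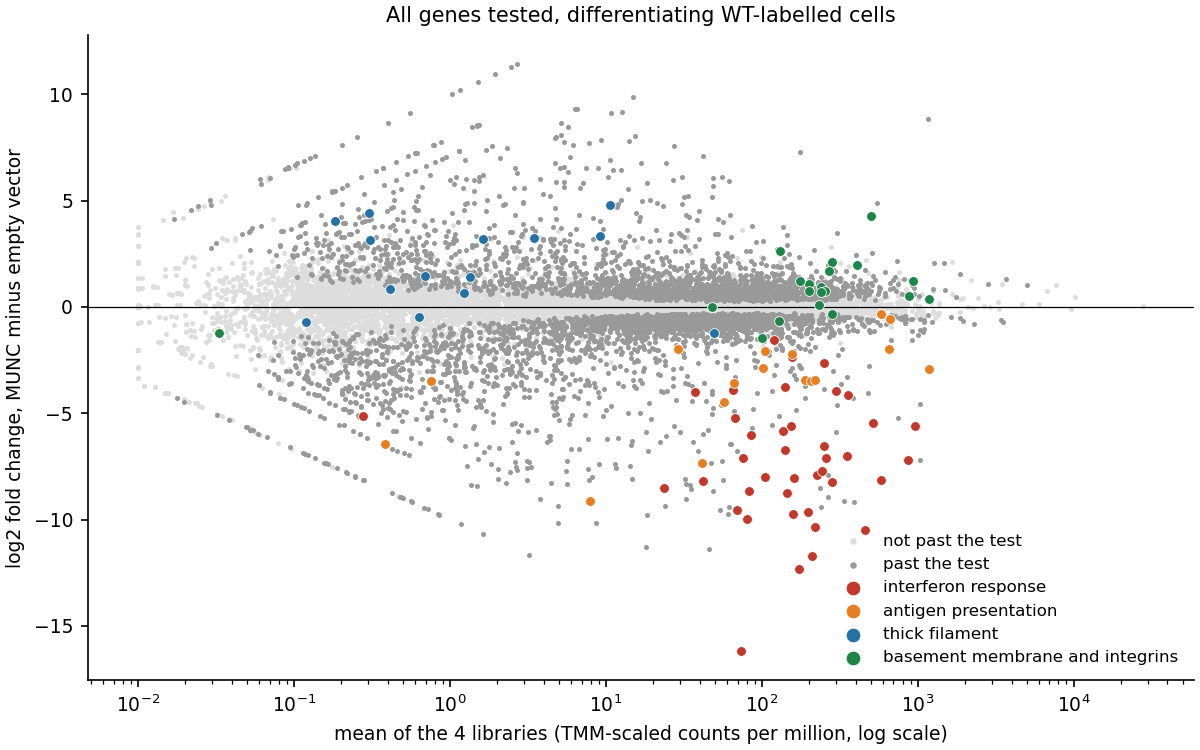
Log2 fold change of MUNC over EV against the mean level of the 4 libraries, for 14972 genes. Coloured points are members of 4 lists; 41 of 41 interferon genes lie below 0 and were past the test, while 8 of 15 thick filament genes and 12 of 20 basement membrane genes were past it above 0. The straight outer edges come from genes with few counts in 1 group, and Oas1g at the bottom has 0 counts with MUNC.

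The interferon difference was compared with growth medium and with the knockout-labelled cells by tests of the difference itself. In growth medium the 41 genes had a median log2 difference between MUNC and EV of -1.26, and in differentiating knockout-labelled cells of -0.17. The difference in DM was more negative than that in GM for 28 of 41 members, beside 2.09% of all genes, and 17 of 41 without the MUNC GM replicate 1. It was more negative than in knockout-labelled cells for 40 of 41 members, beside 10.1% of all genes. The MUNC RNA stood at only 43.0 and 50.4 CPM in the knockout-labelled MUNC libraries in DM, against 2012 and 2670 CPM in the WT-labelled ones. Label and amount of MUNC therefore cannot be told apart in that comparison. From GM to DM the median of the 41 genes moved by 7.20 in the EV cells and by 1.18 in the MUNC cells. Isg15 is 1 example, in which MUNC cells stood below EV cells already in GM. EV cells went from 11.6 and 5.36 CPM in GM to 633 and 774 CPM in DM, and MUNC cells from 0.538 and 0.271 CPM to 4.91 and 5.92 CPM. The knockout-labelled cells in DM reached 280 and 285 CPM with EV and 227 and 274 CPM with MUNC. In DM the WT-labelled MUNC libraries stood below the other 6 libraries for Isg15, and their summed interferon level of 463 and 439 CPM lay within the 516 and 372 CPM of the EV libraries in GM.

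**Figure D3:**
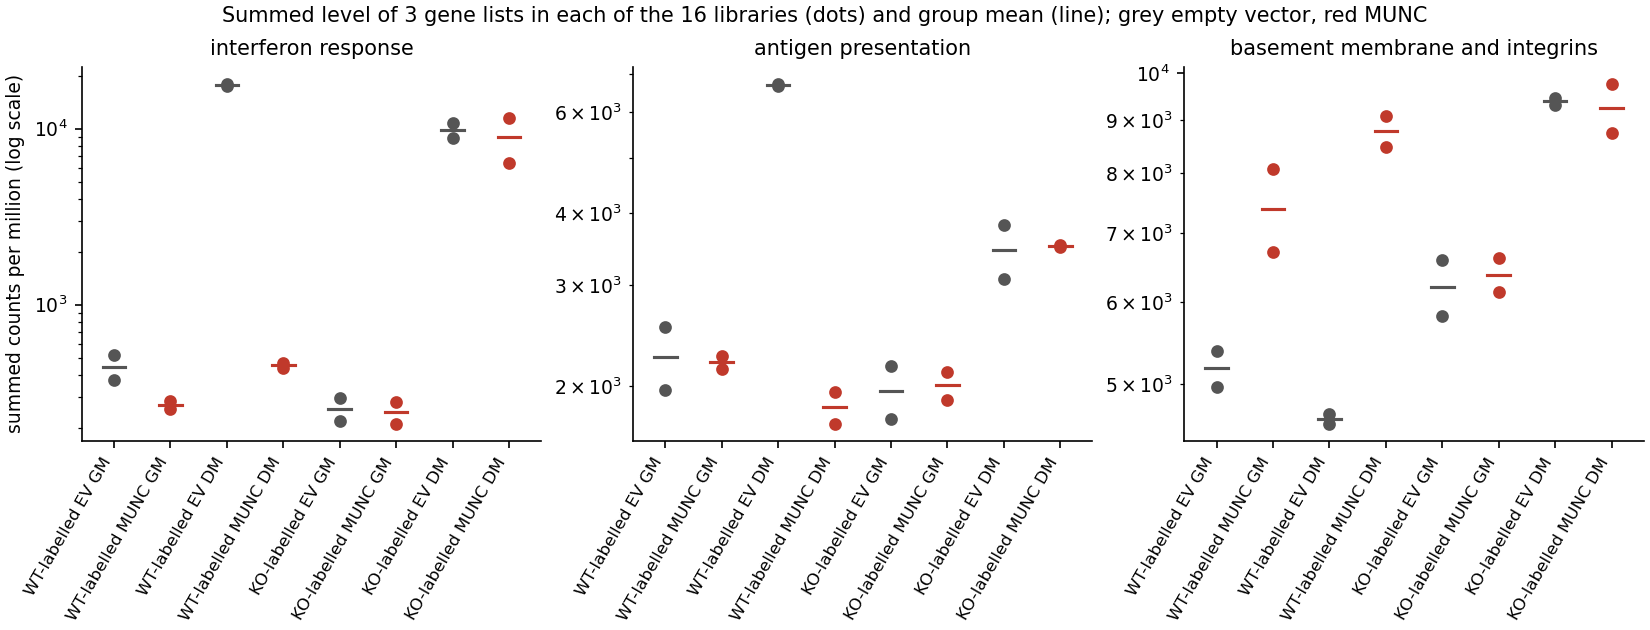
Summed level of 3 gene lists in all 16 libraries, in CPM on log axes that do not start at 0; dots are libraries, lines group means, grey EV and red MUNC. The interferon genes summed to 17502 and 17884 CPM in differentiating WT-labelled EV libraries, to 463 and 439 CPM with MUNC, and to between 6399 and 11446 CPM in the differentiating knockout-labelled libraries.

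Chemokine and cytokine genes were lower in 13 of 25 tested members and higher in 3 (Cxcl5, Cx3cl1 and the NF-kappa-B inhibitor Nfkbia). Without MUNC replicate 2, 8 were lower; 1 was higher without EV replicate 1, EV replicate 2 or MUNC replicate 1. Cxcl10, an interferon-induced chemokine for T cells, stood at 66.3 and 121 CPM with EV and at 0.589 and 0.565 CPM with MUNC (-7.35 ± 0.54, edgeR adjusted p = 3.4e-06). Ccl5 stood at 71.6 and 204 CPM against 1.43 and 1.10 CPM (-6.78 ± 0.71). In growth medium the differences were -6.67 for Cxcl10 and -6.66 for Ccl5, and neither passed the test between media. Lif, a cytokine of the interleukin-6 family, differed by -2.42 ± 0.29.

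Genes of the unfolded protein and integrated stress response, which slows translation and turns on amino acid synthesis through Atf4, were lower in 17 of 27 tested members and higher in 1, with a median of -0.91. Without EV replicate 2, 11 were lower, and the higher member, Atf6, was past the test in none of the 4 fits that leave out 1 library. Ddit3 (CHOP), a pro-apoptotic target of Atf4, stood at 182 and 248 CPM with EV and at 25.9 and 38.1 CPM with MUNC (-2.74 ± 0.24, edgeR adjusted p = 1.3e-05). Asns, asparagine synthetase, stood at 224 and 325 CPM against 30.3 and 43.5 CPM (-2.89 ± 0.34). Chac1, a glutathione-degrading enzyme, differed by -2.86 ± 0.41, Phgdh, the first enzyme of serine synthesis, by -2.06 ± 0.29 and Mthfd2 of mitochondrial folate metabolism by -1.71 ± 0.27. The chaperone-side gene Pdia4 moved less, by -1.17 ± 0.16. In GM Ddit3 was at 24.8 and 24.8 CPM with EV and at 32.6 and 33.0 CPM with MUNC, and the difference between media was -3.15 ± 0.33 (edgeR, adjusted p = 0.00053). EV replicate 2 stood above EV replicate 1 for all 6 of these genes.

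Of 23 p53 target genes tested, 13 were lower, beside 17.7% of all genes, and 9 of these by less than 1 on the log2 scale. Sesn1, Fas and Phlda3 were higher, a share near the 15.6% of all genes. The lower count was 5 without EV replicate 2, 5 without MUNC replicate 1 and 8 without MUNC replicate 2. Sesn2, a stress-induced inhibitor of mTORC1, differed by -1.46 ± 0.30 and the polo-like kinase gene Plk2 by -1.21 ± 0.25. Cdkn1a (p21), the cell cycle inhibitor that also rises in myotubes, stood at 302 and 373 CPM with EV and at 184 and 268 CPM with MUNC (-0.58 ± 0.20, edgeR adjusted p = 0.049); it did not pass without EV replicate 2 (adjusted p = 0.26) or MUNC replicate 1 (adjusted p = 0.32). Perp, a desmosomal p53 target, stood at 17.1 and 17.3 CPM against 0.0393 and 0 CPM, and also at 24.8 and 18.96 CPM against 0.0317 and 0 CPM in GM. Fas, a death receptor, was higher at 4.71 and 4.66 CPM against 1.16 and 1.17 CPM (2.01 ± 0.31).

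Muscle genes were in part higher with MUNC, from low levels. Among 17 myogenic transcription factors tested, 5 were higher and none lower: Myod1, Myog, Tead1, Tcf3 and Mef2d, of which 3 were past the test without EV replicate 1, without MUNC replicate 1 or without MUNC replicate 2. Myog, the factor of terminal differentiation, stood at 1.16 and 0.733 CPM with EV and at 7.91 and 8.14 CPM with MUNC (3.07 ± 0.55, edgeR adjusted p = 0.0016). The knockout-labelled libraries in DM were higher, at 21.97 and 24.2 CPM with EV and at 33.7 and 27.04 CPM with MUNC. Myf5, the factor of early myoblasts, stood at 86.0 and 78.9 CPM against 57.6 and 63.1 CPM and did not pass the test (-0.45 ± 0.24), but it passed as lower with only the 8 WT-labelled or only the 4 compared libraries in the fit (edgeR adjusted p = 0.030 and 0.033). Tead1 (0.76 ± 0.19), Tcf3 (0.62 ± 0.17) and Mef2d (0.32 ± 0.11) each lost the call without 1 or more libraries, with adjusted p up to 0.070, 0.13 and 0.29.

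Thick filament genes were higher in 8 of 15 tested members and lower in none, beside 15.6% of all genes; 5 were higher without EV replicate 2 or without MUNC replicate 1. Myh3, the embryonic myosin heavy chain, stood at 0.932 and 0.543 CPM with EV and at 33.2 and 7.90 CPM with MUNC (4.78 ± 0.58, edgeR adjusted p = 0.00013). The MUNC libraries differ from each other here, and both lie above both EV libraries. Mylpf, a fast regulatory light chain, stood at 1.83 and 1.45 CPM against 21.8 and 11.8 CPM (3.35 ± 0.33). Myom1 of the M-band differed by 1.42 ± 0.29. The summed level of the list overlapped all the same, at 56.5 and 95.6 CPM with EV and at 94.0 and 72.2 CPM with MUNC, and Myh2 and Myl2 had no count in any of the 4 libraries. In the knockout-labelled libraries in DM Myh3 stood at 208 to 314 CPM.

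Thin filament genes were higher in 8 of 20 members and lower in 1, the actin-anchoring Nrap, which did not pass without EV replicate 2, MUNC replicate 1 or MUNC replicate 2. Acta1, skeletal alpha-actin, stood at 1.24 and 0.204 CPM with EV and at 33.9 and 9.42 CPM with MUNC (4.86 ± 1.11, edgeR adjusted p = 0.0063), and did not pass without EV replicate 2 (adjusted p = 0.056). Neb, the nebulin ruler, stood at 0.526 and 0.231 CPM against 6.07 and 2.91 CPM (3.53 ± 0.46) and Tnnc2, fast troponin C, at 0.351 and 0.136 CPM against 5.40 and 1.80 CPM (3.84 ± 0.60). Tnnt3, fast troponin T, overlapped between groups and did not pass (1.14 ± 0.84). At the Z-disc 2 of 19 members were higher (Klhl31 and Klhl41). This count and the thin filament counts stand beside 15.6% of all genes higher and 17.7% lower. Ttn, the titin gene, stood at 4.40 and 5.63 CPM against 17.9 and 12.3 CPM with a wide error (1.59 ± 0.88), and Des, the muscle intermediate filament, at 43.2 and 39.6 CPM against 22.4 and 15.1 CPM (-1.15 ± 0.70). Neither passed, although with only the 4 libraries in the fit both did (edgeR adjusted p = 0.0065 for Ttn and 0.010 for Des), and Ttn also with the 8 WT-labelled libraries (adjusted p = 0.0070).

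Excitation-contraction coupling genes were higher in 7 of 19 tested members, beside 15.6% of all genes, and lower in 1, Clcn1, beside 17.7%. Kcnj2, the inward rectifier that hyperpolarises myoblasts before fusion, stood at 4.74 and 2.24 CPM with EV and at 76.7 and 53.2 CPM with MUNC (4.21 ± 0.75, edgeR adjusted p = 0.0015). Cacng1, a subunit of the calcium channel in the T-tubule, stood at 3.78 and 5.14 CPM against 39.8 and 55.7 CPM (3.42 ± 0.50), and Ryr1, the calcium release channel, at 1.12 and 0.977 CPM against 4.44 and 2.90 CPM (1.80 ± 0.31). Jph2, which ties both membranes together, differed by 1.96 ± 0.37. Clcn1, the muscle chloride channel, stood at 2.37 and 6.22 CPM against 0.196 and 0.258 CPM (-4.20 ± 0.55).

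At the neuromuscular junction 5 of 13 members were higher and 3 lower; the higher count was 3, 3, 3 and 2 when EV replicate 1, EV replicate 2, MUNC replicate 1 or MUNC replicate 2 was left out. Over all genes 15.6% were higher and 17.7% lower. Musk, the receptor kinase that organises the junction, stood at 0.362 and 0.136 CPM with EV and at 19.98 and 24.1 CPM with MUNC (6.43 ± 0.77, edgeR adjusted p = 0.00011). Rapsn, which clusters acetylcholine receptors, stood at 62.3 and 59.2 CPM against 146 and 172 CPM (1.39 ± 0.17). The receptor subunit Chrna1 stood at 71.2 and 66.5 CPM against 223 and 263 CPM (1.82 ± 0.54, adjusted p = 0.024), with no call when any 1 of the 4 libraries was left out (adjusted p between 0.058 and 0.12). Its partner Chrnb1 was lower (-1.10 ± 0.25, adjusted p = 0.064 without MUNC replicate 1), as was Agrn, the nerve and muscle ligand of the Musk complex, at 193 and 174 CPM against 55.6 and 65.0 CPM (-1.61 ± 0.17). Without MUNC replicate 1 the lower count was 1. The lower members also include Ache, and the higher ones Lrp4 and Utrn. The promoter windows of Chrna1 and Musk are shown because both genes were higher with MUNC already in GM; capitals mark the E-box letters CAGCTG (the same on both strands) and CACCTG, whose other strand reads CAGGTG; none of these matches overlap.
Chrna1, chr2:73580289-73580588, minus strand: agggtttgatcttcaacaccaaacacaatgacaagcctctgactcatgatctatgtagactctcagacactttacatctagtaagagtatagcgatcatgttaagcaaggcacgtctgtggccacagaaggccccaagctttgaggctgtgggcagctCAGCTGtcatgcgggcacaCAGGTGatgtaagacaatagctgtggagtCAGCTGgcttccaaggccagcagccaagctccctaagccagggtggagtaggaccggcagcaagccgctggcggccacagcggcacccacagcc
Musk, chr4:58285712-58286011, plus strand: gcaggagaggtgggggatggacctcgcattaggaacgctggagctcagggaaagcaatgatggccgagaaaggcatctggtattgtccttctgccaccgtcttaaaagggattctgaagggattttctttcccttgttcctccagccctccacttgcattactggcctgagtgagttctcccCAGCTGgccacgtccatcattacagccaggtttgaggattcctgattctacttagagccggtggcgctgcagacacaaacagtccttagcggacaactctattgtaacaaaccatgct

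The Chrna1 window holds 3 matches, which begin 92, 73 and 44 bases before the start, and the Musk window holds 1, which begins 68 bases before it. These letters are common: 32.9% of all windows and 35.9% of all genes with a window hold at least 1 match. Among thick and thin filament genes 23 of 34 did (67.6%), and among junction genes 5 of 9.

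Genes of myoblast fusion and membrane repair were higher in 9 of 20 tested members and lower in none, beside 15.6% and 17.7% of all genes. Dysf, the membrane repair protein dysferlin, stood at 0.263 and 0.231 CPM with EV and at 12.8 and 15.4 CPM with MUNC (5.82 ± 0.30, edgeR adjusted p = 4.8e-07). Mymk (myomaker), a fusogen, stood at 0.230 and 0.136 CPM against 6.71 and 4.76 CPM (4.93 ± 0.66); the second fusogen, Mymx, differed by 2.50 ± 0.67 and lost its call without EV replicate 2 (adjusted p = 0.094) or MUNC replicate 1 (adjusted p = 0.068). Cd9, a tetraspanin, stood at 152 and 111 CPM against 364 and 333 CPM (1.41 ± 0.15), and its difference in DM exceeded that in GM by 1.71 ± 0.21 (adjusted p = 0.0015). Cdh15, M-cadherin, stood at 60.1 and 25.8 CPM against 82.1 and 90.8 CPM and did not pass the test (1.01 ± 1.51). Its WT-labelled replicates in GM, which enter the same fit, stood at 88.5 and 13.8 CPM with EV and at 80.9 and 11.1 CPM with MUNC. Of the dystrophin complex 4 of 11 members were higher, Sntb1 and Dag1 among them, beside 15.6% of all genes, and Dtna was lower. Dag1, dystroglycan, stood at 310 and 242 CPM against 589 and 577 CPM (1.08 ± 0.17).

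Of 19 muscle metabolism genes 4 were higher and 4 lower, shares near the 15.6% and 17.7% of all genes. Ckb, brain creatine kinase, stood at 1.03 and 1.10 CPM with EV and at 17.0 and 17.8 CPM with MUNC (4.03 ± 0.29, edgeR adjusted p = 2.9e-06), and Ckm, the muscle form, at 0.285 and 0.0136 CPM against 3.79 and 1.22 CPM (3.98 ± 0.83). Pygm, muscle glycogen phosphorylase, differed by 2.59 ± 0.35. Ppargc1a (PGC-1 alpha), a coactivator of mitochondrial genes, was lower at 18.1 and 21.9 CPM against 0.294 and 0.249 CPM (-6.21 ± 0.66). Hexokinase Hk2 and glycogen synthase Gys1 differed by -1.44 ± 0.30 and -0.79 ± 0.13.

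Of 21 genes known to hold back myogenesis 4 were higher (Id3, Snai1, Dll1 and Hdac4), near the 15.6% of all genes, and Snai2 was lower, with no lower member when any 1 of the 4 libraries was left out. Id3, which sequesters the E-protein partners of MyoD, stood at 1.52 and 1.97 CPM with EV and at 60.6 and 63.4 CPM with MUNC (5.15 ± 1.10, edgeR adjusted p = 0.0042). Id1 stood at 8.70 and 8.24 CPM against 26.7 and 30.5 CPM without passing the test (1.76 ± 1.203); it passed with only the 4 libraries in the fit (edgeR adjusted p = 0.00079). Dll1, a Notch ligand, stood at 0.263 and 0.109 CPM against 8.32 and 7.15 CPM (5.33 ± 0.44). Among 16 satellite and reserve cell markers 5 were higher, 3 without EV replicate 2, and 2 lower, 1 without MUNC replicate 2. These counts stand beside 15.6% of all genes higher and 17.7% lower. Cxcr4, a chemokine receptor, differed by 4.90 ± 0.48, and Sdc3, a syndecan, by -3.28 ± 0.60 from 147 and 98.5 CPM to 13.1 and 12.2 CPM.

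**Figure D4:**
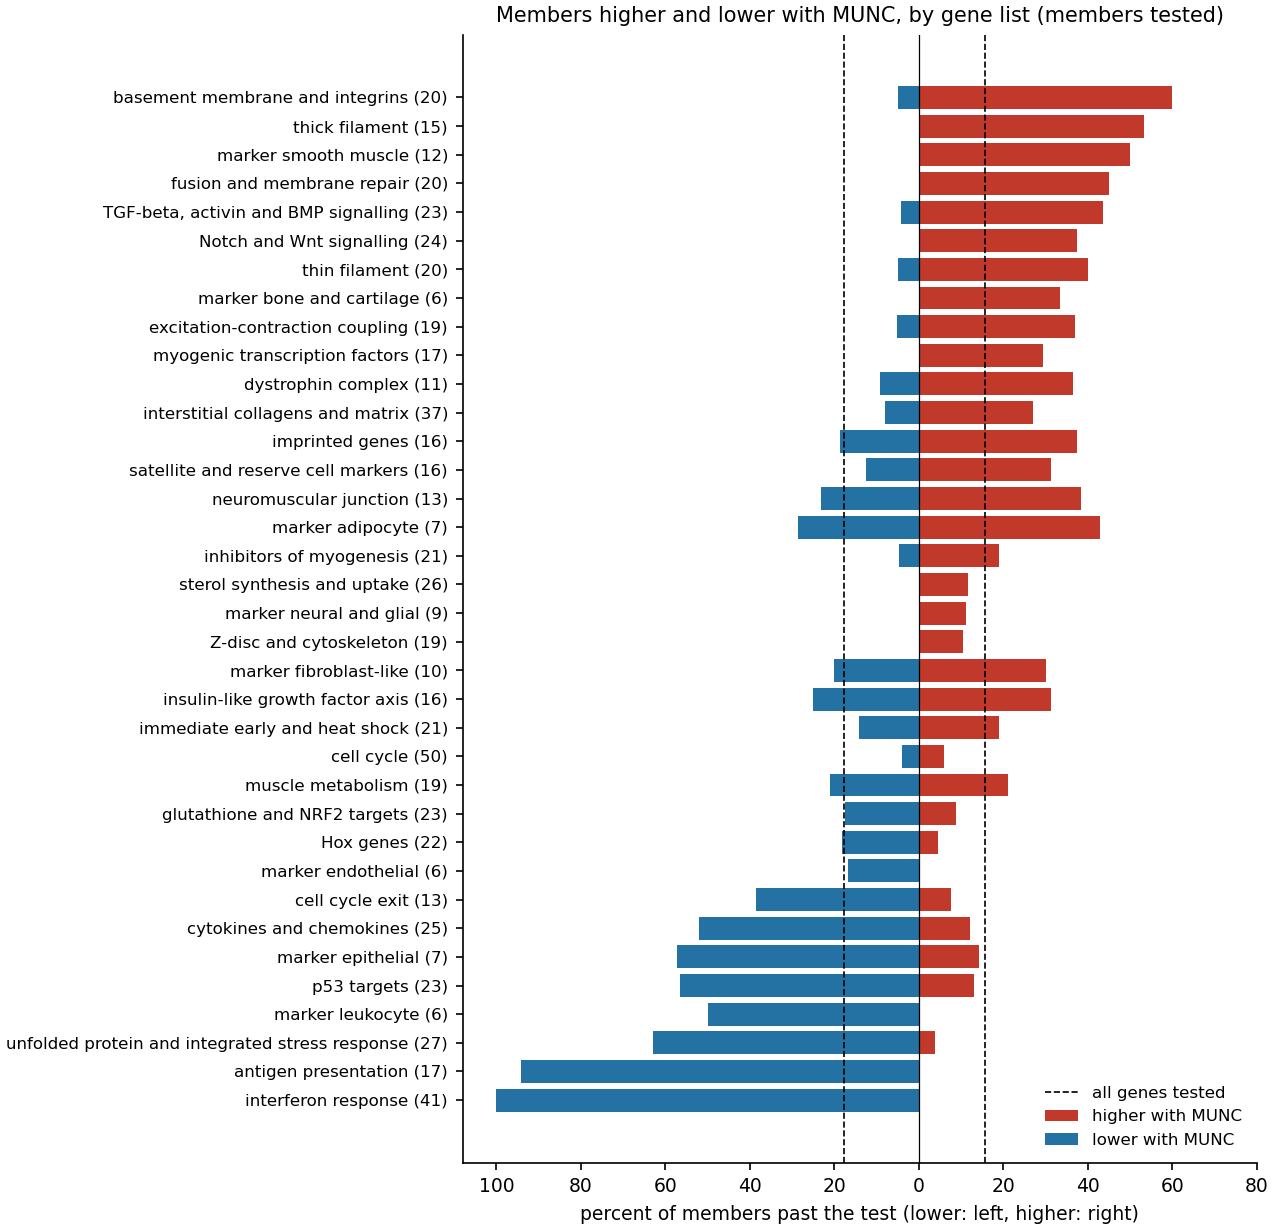
Share of the tested members of each gene list that were past the test, higher with MUNC to the right and lower to the left; the number tested is in brackets and dashed lines mark the shares over all genes, 15.6% and 17.7%. Interferon response (41 of 41) and antigen presentation (16 of 17) extend farthest to the left, and basement membrane and integrins (12 of 20) farthest to the right.

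Basement membrane and integrin genes were higher in 12 of 20 tested members and lower in 1, the laminin receptor subunit Itga6, which did not pass without EV replicate 2 or MUNC replicate 1. Their summed level was 4578 and 4682 CPM with EV and 8479 and 9083 CPM with MUNC. Col4a1 and Col4a2, the paired collagen IV chains of every basement membrane, stood at 197 and 136 CPM against 638 and 651 CPM (1.95 ± 0.31, edgeR adjusted p = 0.00073) and at 124 and 87.0 CPM against 450 and 467 CPM (2.12 ± 0.36). Col4a5 differed by 2.62 ± 0.45, the laminin chain Lamb2 by 1.203 ± 0.17 and the integrin subunit Itgav by 0.95 ± 0.13. Over the list, both MUNC libraries lay above both EV libraries for 13 of 20 members, beside 35.0% of all genes, and below them for 4, beside 35.2%. In the comparison with knockout-labelled cells that follows, the amount of MUNC RNA differs as well as the label. The knockout-labelled libraries in DM summed to between 8747 and 9751 CPM, and 10 of the 20 members had a more positive MUNC difference in the WT-labelled cells beside 8.01% of all genes (5 members without the knockout-labelled MUNC DM replicate 2).

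Interstitial matrix genes were higher in 10 of 37 members and lower in 3 (Tnc, Thbs2 and Col11a1); 5 were higher without EV replicate 2 or without MUNC replicate 1. Col12a1, a fibril-associated collagen, stood at 47.6 and 23.4 CPM with EV and at 1106 and 1016 CPM with MUNC (4.90 ± 0.75, edgeR adjusted p = 0.00056). The proteoglycan gene Bgn stood at 2147 and 1538 CPM against 4182 and 3484 CPM (1.06 ± 0.20), and the crosslinking enzyme Lox differed by 1.31 ± 0.24. The adhesion-modulating Thbs2 was lower, at 214 and 238 CPM against 80.5 and 71.1 CPM (-1.58 ± 0.21), as was Tnc (-1.93 ± 0.36). Col1a1, the main fibrillar collagen, did not pass (-0.41 ± 1.03).

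Genes of transforming growth factor beta, activin and BMP signalling were higher in 10 of 23 tested members and lower in 1, the BMP inhibitor Nog, which lost its call without EV replicate 2, MUNC replicate 1 or MUNC replicate 2. Tgfb1 stood at 37.3 and 32.8 CPM with EV and at 79.0 and 76.9 CPM with MUNC (1.15 ± 0.21, edgeR adjusted p = 0.0018), and Tgfb3 differed by 1.64 ± 0.24. Ltbp3 and Ltbp2, of the gene family named for latent TGF-beta binding, were higher too. Ltbp3 stood at 164 and 118 CPM against 448 and 449 CPM (1.67 ± 0.20). Ltbp2 stood at 25.7 and 13.6 CPM against 157 and 171 CPM (3.06 ± 0.62). Notch and Wnt genes were higher in 9 of 24 members and lower in none. The Wnt receptor Fzd1 stood at 22.4 and 22.1 CPM against 150 and 122 CPM (2.61 ± 0.16, adjusted p = 1.3e-06), the ligand Wnt10a differed by 2.64 ± 0.33, and Lfng, which modifies Notch, by 2.57 ± 0.34.

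Imprinted genes moved in both directions, 6 of 16 higher and 3 lower, with 3 higher without EV replicate 2. Igf2, a growth factor that muscle cells secrete when they differentiate, stood at 19.3 and 4.08 CPM with EV and at 149 and 83.2 CPM with MUNC (3.31 ± 1.09, edgeR adjusted p = 0.037), and its call was lost without EV replicate 2 (adjusted p = 0.19), MUNC replicate 1 (adjusted p = 0.15) or MUNC replicate 2 (adjusted p = 0.070). H19, its neighbour, did not pass (2.13 ± 1.73), except with only the 4 libraries in the fit (edgeR adjusted p = 0.0105). Peg3 stood at 124 and 101 CPM against 472 and 470 CPM (2.07 ± 0.41), and Zim1 of the same imprinted domain at 0.252 and 0.0543 CPM against 20.3 and 9.13 CPM (6.52 ± 1.03). The neighbours Peg10 (chromosome 6, 4747306 to 4760517) and Sgce (4674350 to 4747204) were lower by -6.66 ± 0.84 and -6.75 ± 0.78, from 9.21 and 17.5 CPM to 0.334 and 0.00957 CPM for Peg10. Both were also low with MUNC in GM, where Peg10 stood at 34.4 and 43.5 CPM against 0.190 and 0 CPM. Of 16 genes of the insulin-like growth factor axis 5 were higher and 4 lower. For this axis and the imprinted genes, the counts stand beside 15.6% of all genes higher and 17.7% lower. Igfbp7, a secreted binding protein, stood at 7.85 and 5.73 CPM against 112 and 102 CPM (3.97 ± 0.55), and the receptor Igf2r differed by -1.23 ± 0.18.

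Few proliferation genes passed the test. Of 50 cell cycle genes, 3 were higher (Rrm2, Bub1b and Cenpf) and 2 lower (Ccne1 and Mcm3), beside 15.6% and 17.7% of all genes. The higher count was 6 without EV replicate 2 and 1 without MUNC replicate 2, and the lower count 0 without EV replicate 2 or MUNC replicate 1. Mki67, a proliferation marker, stood at 119 and 142 CPM with EV and at 176 and 195 CPM with MUNC (0.51 ± 0.22, edgeR adjusted p = 0.093; 0.039 with only the 4 libraries in the fit). The mitotic cyclin Ccnb1 differed by 0.34 ± 0.20 and the G1 cyclin Ccnd1 by -0.56 ± 0.25; neither passed, but Ccnb1 did without EV replicate 2 (adjusted p = 0.035) and Ccnd1 without MUNC replicate 2 (adjusted p = 0.043) or with the replicate number as a block (adjusted p = 0.0047). Of 13 genes of cell cycle exit 5 were lower, 1 without EV replicate 2 and 3 without MUNC replicate 1, and Cdkn2c (p18) was higher by 1.23 ± 0.22. Ccnd2, a D-type cyclin, stood at 187 and 317 CPM against 9.21 and 5.16 CPM (-5.14 ± 0.58), and at 106 and 108 CPM against 6.62 and 2.06 CPM in GM.

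Immediate early and heat shock genes were higher in 4 of 21 members, 2 without EV replicate 1, and lower in 3. Both shares are near those of all genes, 15.6% higher and 17.7% lower. Myc stood at 49.6 and 91.4 CPM with EV and at 17.8 and 20.4 CPM with MUNC (-1.88 ± 0.27, edgeR adjusted p = 0.00033), and the immediate early factor Egr2 was higher by 2.69 ± 0.31. The chaperone gene Hsp90aa1 was lower, at 1446 and 1370 CPM against 691 and 658 CPM (-1.06 ± 0.17), while Hspa1b (Hsp70) was higher by 2.41 ± 0.56 and lost its call without EV replicate 1 (adjusted p = 0.055). Hmox1, heme oxygenase, differed by -1.44 ± 0.26. For 23 of 26 sterol synthesis genes both MUNC libraries lay above both EV libraries, beside 35.0% of all genes, and for 0 below them. The list summed to 5560 and 5578 CPM with EV and to 8154 and 10838 CPM with MUNC, with a median log2 difference of 0.54. In GM its MUNC replicates, which enter the same fit, summed to 8591 and 4304 CPM. Fewer members passed the test. Of 26 sterol synthesis genes 3 were higher, Ebp and Srebf2 among them, and none lower; the higher count was 5 without MUNC replicate 1 and 0 without MUNC replicate 2. Of 22 Hox genes 1 was higher and 4 lower; 2 were lower without MUNC replicate 2, and none was higher without EV replicate 2 or MUNC replicate 1. The share of Hox genes that was lower is near the 17.7% of all genes. Among genes of the highest level, Vim, the mesenchymal intermediate filament, stood at 3312 and 3331 CPM against 5740 and 7700 CPM (1.02 ± 0.19) and Ahnak, a large scaffold protein, differed by 1.53 ± 0.26. Gapdh and Actg1, often used as references, differed by -0.53 ± 0.16 and -0.70 ± 0.18, each with calls lost when 1 library was left out (adjusted p up to 0.17 and 0.063).

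Markers of other cell types were read beside these groups. Of 12 smooth muscle markers 6 were higher, 2 without EV replicate 2, and none lower. Acta2, smooth muscle actin, stood at 318 and 219 CPM with EV and at 1292 and 1129 CPM with MUNC (2.17 ± 0.51, edgeR adjusted p = 0.0071; 0.069 without EV replicate 2), and Synpo2 at 1.59 and 1.23 CPM against 30.8 and 29.3 CPM (4.40 ± 0.41). Tagln (1.17 ± 0.38) did not pass without EV replicate 1, EV replicate 2 or MUNC replicate 1 (adjusted p = 0.076, 0.18 and 0.25). Of 10 fibroblast-like markers 3 were higher (Pdgfrb, S100a4 and Clec3b) and 2 lower: Ly6a, the Sca-1 gene, which interferon also induces, stood at 2009 and 1984 CPM against 60.1 and 108 CPM (-4.57 ± 0.51), and Ly6c1 differed by -4.29 ± 0.34. Thy1 and Tcf21 were at 0 in all 4 libraries. The adipocyte regulators Pparg and Cebpa and the fatty acid transporter Cd36 were higher, by 1.29 ± 0.24, 4.73 ± 0.72 and 7.40 ± 1.13, and Fabp4 and Dgat2 lower, with no lower member without MUNC replicate 1; Lep and Ucp1 were at 0. Omd, a bone proteoglycan, was higher by 4.03 ± 0.34.

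Leukocyte markers, which could carry interferon genes, were at 43.8 and 44.1 CPM in sum with EV and at 19.9 and 20.4 CPM with MUNC. Adgre1, Cd3e and C1qa were at 0 in all 4 libraries, and 3 of 6 tested markers were lower (Cd53, Cd68 and Lyz2), 1 without MUNC replicate 1. Endothelial markers summed to 5.23 and 5.97 CPM against 3.16 and 3.65 CPM, with Tie1, Emcn and Cldn5 at 0. Of 7 epithelial markers 4 were lower and Krt14 higher, with Krt8 at 16.6 and 12.1 CPM against 0.393 and 0.459 CPM (-5.06 ± 0.51, edgeR adjusted p = 3.1e-05) and Epcam at 0. The part of these marker changes in the lists above was not tested.

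The largest increases among genes with a mean of at least 5 CPM included genes that stood under 0.2 CPM with EV. Gpr153, an orphan receptor gene, stood at 0.0439 and 0.0136 CPM with EV and at 30.3 and 29.5 CPM with MUNC (9.86 ± 0.56, edgeR adjusted p = 8.2e-07). Chst7, a chondroitin sulfotransferase gene, stood at 0.0110 and 0.0271 CPM against 11.8 and 14.3 CPM (9.33 ± 0.62), and Svep1, a large extracellular matrix protein, differed by 9.30 ± 0.93. Itpkb, an inositol trisphosphate kinase gene, stood at 0.0768 and 0 CPM against 24.9 and 25.9 CPM (9.18 ± 0.59). In the knockout-labelled EV libraries in DM it was already at 16.6 and 16.2 CPM. Prg4, the lubricin gene, stood at 0.154 and 0.0679 CPM against 32.6 and 28.7 CPM (8.05 ± 0.55).

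**Figure D5:**
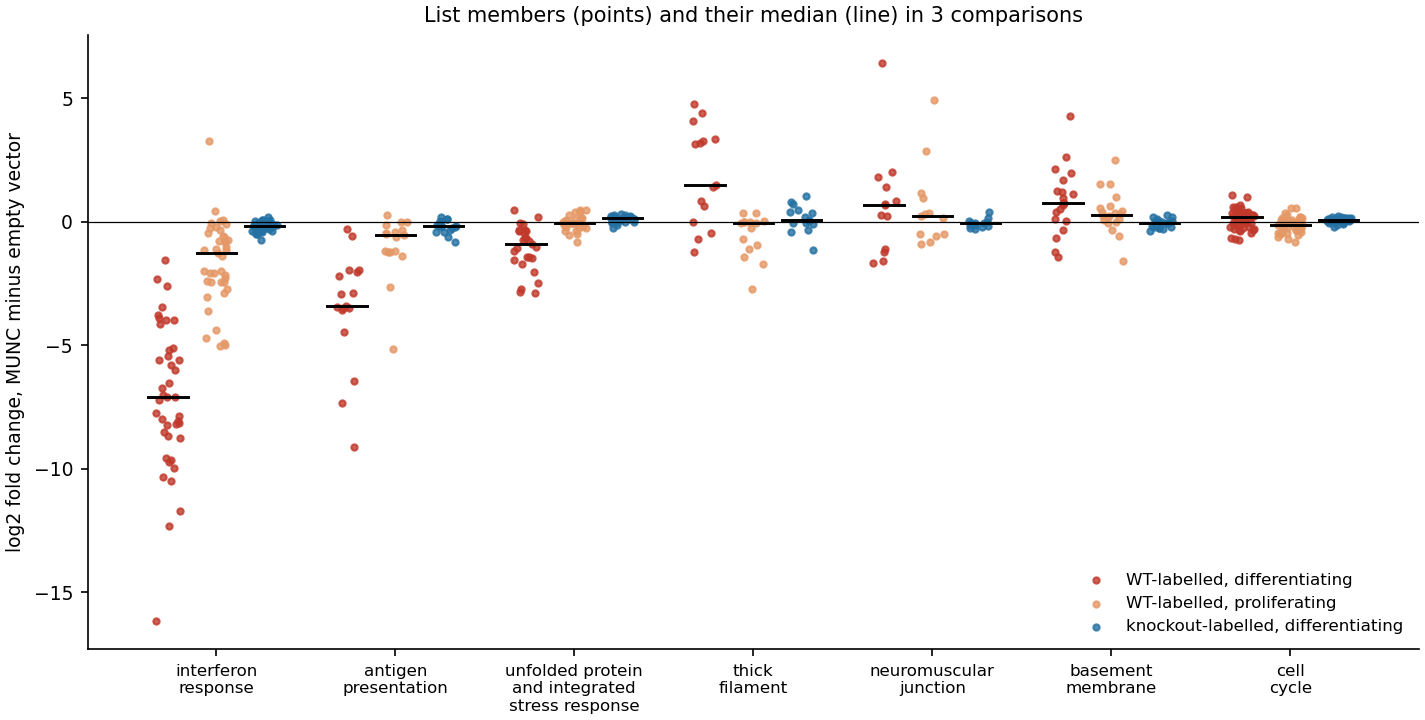
Log2 fold change of MUNC over EV for the members of 7 lists in differentiating WT-labelled cells (red), proliferating WT-labelled cells (orange) and differentiating knockout-labelled cells (blue); points are genes, spread sideways at random, and lines are medians. The interferon medians are -7.09, -1.26 and -0.17, and the thick filament medians 1.47, -0.06 and 0.06.

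Tests of the difference place these changes. The MUNC difference in DM departed from that in GM for 499 genes (3.33%), 186 more positive and 313 more negative. That total was 496 without EV DM replicate 1 and between 198 and 327 without any other of the 8 WT-labelled libraries. The MUNC difference departed from that in knockout-labelled cells for 2708 genes (18.1%), 1199 more positive and 1509 more negative. Between 1514 and 1795 genes passed without EV replicate 2 or either MUNC replicate of the WT-labelled cells, or without either EV replicate or MUNC replicate 2 of the knockout-labelled cells. In knockout-labelled cells the MUNC RNA itself was at 12.4 and 2.23 CPM with EV and at 43.0 and 50.4 CPM with MUNC, far below the WT-labelled MUNC cells, so both the label and the amount of MUNC differ between those comparisons. For Mylpf the difference in DM exceeded that in GM by 3.33 (edgeR adjusted p = 0.0036) and for Ckb by 3.20 (adjusted p = 0.00095). Igf2bp2, an RNA-binding protein of myoblasts, showed the opposite: MUNC cells stood above EV cells by 1.66 ± 0.23 in DM and by 5.24 in GM, a difference of -3.58 ± 0.34 (adjusted p = 0.00031). Musk, Dysf, Ccnd2, Peg10 and Perp did not pass the test between media and differed in GM as well, with log2 differences there of 4.91, 4.15, -4.62, -8.58 and -10.19.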

How the data were processed

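Poly(A)-enriched RNA of 16 libraries, 2 in each of 8 groups, was quantified by the authors with kallisto against mm10, per the submitters' processing notes; its version and strand setting are not known here. Each deposited table holds an estimated count, an effective length and a TPM value for 35818 transcripts. Transcripts were matched to gene symbols through the RefSeq table (35492) and GENCODE metadata (188), 138 had none and were left out (0.28 to 0.941% of counts), and counts were summed per gene and rounded. R 4.3.3 and edgeR 4.0.16 fitted all 16 libraries with 1 mean per group (filterByExpr, TMM scaling, quasi-likelihood F test, Benjamini-Hochberg adjustment over 14972 genes, threshold 0.05). TMM-scaled CPM is the level printed. Differences between MUNC effects are contrasts of the same fit. Named genes are a panel, the 15 largest changes each way at a mean of at least 5 CPM, up to 6 members of each list by adjusted p (made up to 3 by level), the 3 largest each way of each contrast between effects and the 5 highest in level each way. The members and gene lists were chosen with earlier results of these data known.

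On simulated counts for 14795 genes in this comparison, the fit recovered 54% of 100 genes changed 2-fold and 97% of 100 changed 4-fold. Of its 158 calls, 4.43% were false. Both rates hold for that simulation only, where far fewer genes differed than the 4980 called in the real comparison. Recovery of genes near the floor of detection, or under the split by replicate number seen here, was not tested. Alternatives were DESeq2 1.42.0, its size factors in edgeR, no filter, a filter at 5 CPM, fits of 8 or 4 libraries, a replicate block, an effective length offset, Zrsr1 left out, limma 3.58.1 on log2(TPM + 1) from the deposited TPM, a test against a log2 fold change of 1 (glmTreat), a threshold of 0.01, and each library left out. Promoter windows are RefSeq's. Some genes are not reported here.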

Additional observations from a re-analysis of the deposited data

Results flagged for a closer look

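Differences between media and between genotype labels passed a test of the difference itself, by edgeR's quasi-likelihood test with Benjamini-Hochberg adjustment. The MUNC effect differed between DM and GM for 499 genes. Among those with a mean of at least 5 CPM the most positive were Prg4 (7.17), Lix1 (5.89) and Myh3 (5.87), and the most negative Oas1a (-9.89), Usp18 (-9.55) and Oas2 (-9.40), all on the log2 scale. Myh3 did not pass in the fit of 8 libraries (adjusted p = 0.054) or without EV GM replicate 1 (adjusted p = 0.11), nor without EV DM replicate 2, EV GM replicate 2, MUNC GM replicate 1 or MUNC GM replicate 2 (adjusted p = 0.055, 0.070, 0.052 and 0.061), Oas1a, Usp18 and Oas2 not without MUNC GM replicate 1 (adjusted p = 0.17, 0.39 and 1), and Oas1a not without MUNC GM replicate 2 (adjusted p = 0.14).

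The MUNC effect in DM differed between WT-labelled and knockout-labelled cells, whose MUNC libraries also differ in MUNC RNA level, for 2708 genes. The most positive were Nsg1 (10.69), Gpr153 (10.18) and Itpkb (9.09), and the most negative Oas1g (-15.69), Oas1a (-12.07) and Ifi209 (-11.87). Oas1g had no count in the MUNC libraries, so its fitted value depends on the prior count and is not a measured size.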

How the results depend on the processing

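Of the 155 genes tested by name, 139 were past the threshold, and 124 of these were past it without each library in turn; no called gene changed direction under any alternative run. Many of these genes were named for a small adjusted p or a large change, so their kept calls do not stand for all genes. The replicate block kept all 139 calls, and with it 6321 genes were called. Across genes, the replicate 1 libraries of both vectors deviated from their group means with a correlation of 0.374. With 2 libraries a group, the replicate 2 pair gives the same value by construction, and the libraries of a pair share only a number. Against a log2 fold change of 1, 1288 genes were called (513 higher, 775 lower), with 4 higher in thick filament and 4 in excitation-contraction coupling, 3 in fusion, 3 in basement membrane, 5 in TGF-beta signalling, and lower 7 cytokines, 1 p53 target and 6 stress response genes; that test asks for a larger change by construction. At 0.01 the counts were 2962 (1334 higher, 1628 lower), with 6 p53 targets lower, and a filter at 5 CPM left 8 cytokines lower. Without 1 library, by construction with fewer samples and the lone library assumed to vary like the other groups, 3140 to 4119 genes were called (1401 to 1735 higher, 1649 to 2384 lower), with 5 to 8 thick filament genes higher and 8 to 11 cytokines, 5 to 11 p53 targets and 11 to 17 stress response genes lower. For the difference between media (499), the counts were 137 (25 more positive, 112 more negative) against log2 1, 176 (45, 131) at 0.01, 1033 (486, 547) with the replicate block, 1155 (474, 681) with DESeq2, 944 (408, 536) with limma, 118 more positive with 8 libraries, and 198 to 496 (50 to 156, 137 to 340) without 1 library; the cause was not tested. For the difference between labels (2708), they were 768 (305, 463) against log2 1, 1264 (546, 718) at 0.01, 1806 more positive with the replicate block, and 1514 to 2399 (641 to 962, 855 to 1437) without 1 library. Zrsr1, not past the test, had a value of 8.62 without EV replicate 2 and reversed to -0.94 without EV replicate 1 and to -6.39 without MUNC replicate 2. The fit of 4 libraries could not give the differences between media or labels.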
